A study of Populus tremula x Populus alba with 2 samples.

Results

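The genes described here are the poplar genes whose transcripts were at least 2-fold less abundant in stems of the MOMT4 transgenic line than in the control. They were selected on the measured values themselves. A gene was taken where its mean over both libraries was at least 5 RPKM (reads per kilobase of exon, scaled to the mapped reads of the library) and where the log2 ratio of MOMT4 to control, taken after 1 RPKM was added to each value as a pseudocount, was at most -1. A short stretch of chromosome 13, with 18 genes past the filter, was left out by the same rule. Of the 41336 rows of the deposited table, 41333 were poplar genes with a usable status, 16584 of these passed the filter outside that stretch, and 49 were lower. This is 0.295% of the genes that passed, while 91 genes, or 0.549%, were at least 2-fold higher in MOMT4 by the same limits. Since the values chose the genes, their ratios are a description and carry no test.

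Stems of hybrid aspen (Populus tremula x Populus alba) that had regrown after coppicing in a greenhouse for about 2 months were compared. The MOMT4 group was 1 library made from pooled plants of a single transgenic line, MOMT4-0, in which a bean PAL2 promoter, active in differentiating vascular tissue, drives an engineered monolignol 4-O-methyltransferase, and the WT group was 1 library made from pooled control plants. Each pool held 2 to 3 plants and was taken from internodes 1 to 15 below the tip, without the bark. Reads were aligned to the genome of another species, P. trichocarpa, with 1 mismatch allowed. With 1 library per line, a difference between the lines cannot be told apart from a difference between the pools, and fewer cells of a type cannot be told apart from less RNA per cell.

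Monolignols are the alcohols that polymerize into lignin in the walls of developing wood cells, and their phenolic hydroxyl group takes part in the coupling. MOMT4 methylates that hydroxyl group, which keeps a monolignol from being built into the polymer. The debarked upper stem holds young and differentiating xylem together with pith, so the RNA comes from several cell types at once. The table pairs its identifiers with no gene names, and no function is given to any gene below; markers of xylem or of other tissues were not analysed here for the same reason. In these identifiers the number after "Potri." is that of the chromosome in 39514 of 39514 cases, and the letter T stands for scaffolds that have not been placed on a chromosome, as in 1821 of 1821 cases.

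One further row carries no poplar identifier and is taken here to be the transgene, with 10489 reads (1221.8 RPKM) in MOMT4 against 38 reads (4.79 RPKM) in WT. The short library codes in the sample descriptions run the other way round from those in the table, and the table's headings were followed. The spacing of the RPKM values gave totals of about 9460000 reads in MOMT4 and 8750000 reads in WT, which is the only depth known for these libraries. The median log2 ratio over the 16584 genes was -0.011, and 90% of them lay between -0.40 and 0.42.

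The median level of the lower genes in WT was close to that of all genes past the filter. In WT they ran from 7.90 RPKM in Potri.009G114700 to 3423 RPKM in Potri.011G074100, with a median of 15.6 RPKM. The WT median over all genes past the filter was 17.3 RPKM. In MOMT4 the lower genes ran from 0 to 1501 RPKM, with a median of 5.29 RPKM. Of the 49 genes, 25 (51.0%) had a mean of 5 to 10 RPKM, and 7 (14.3%) had a mean of at least 50 RPKM. The first share was 26.1% for all genes that passed the filter and 42.9% for the genes at least 2-fold higher. The rule keeps the MOMT4 value well below the WT value, so the mean of a lower gene lies below its WT value. How much this adds to the first share was not tested. The log2 ratios ran from -4.004 to -1.01 with a median of -1.26, or -1.22 with the 3 genes listed at 0 in MOMT4 placed at the limit of -1. The genes crowded at the limit, and 25 were less than 2.5-fold lower on this scale, 14 were at least 3-fold lower and 8 at least 4-fold lower.

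**Figure D1:**
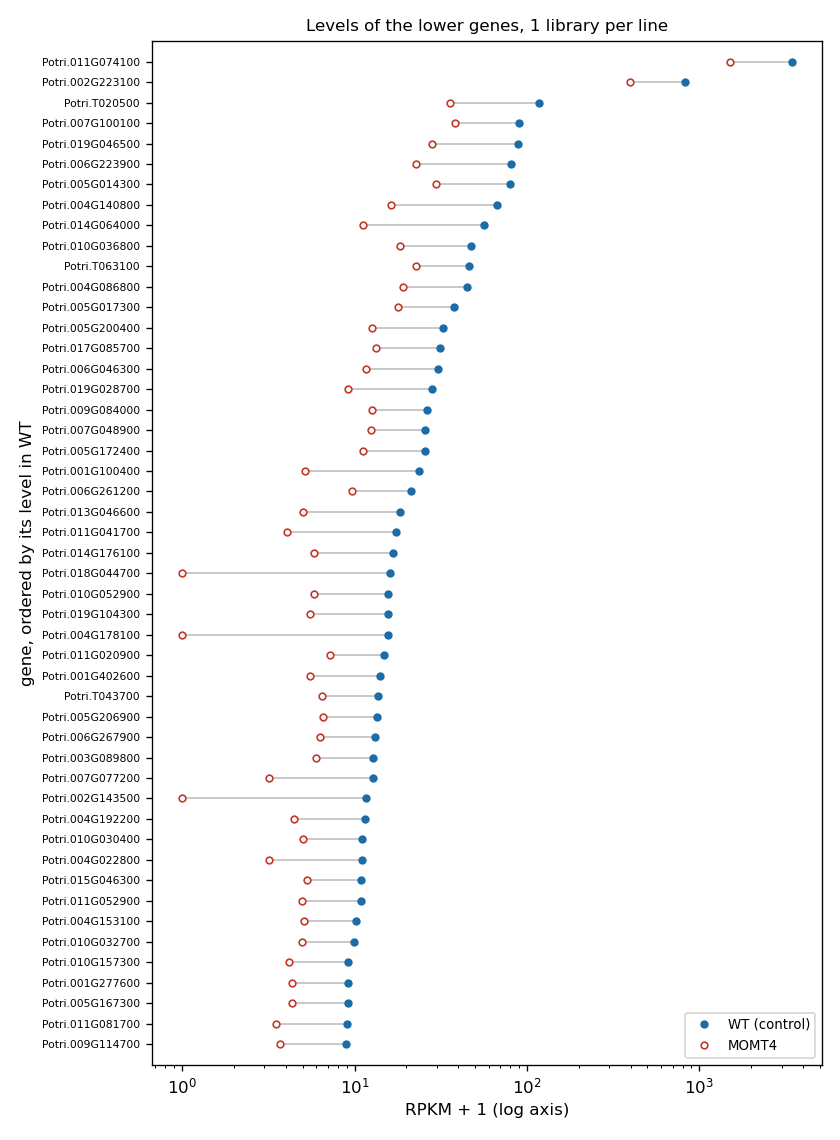
RPKM plus 1 on a log axis for each of the 49 lower genes in the WT library (filled) and the MOMT4 library (open), 1 value per library and no error bars. Most genes lie below 100 RPKM in WT, 2 genes stand far above the rest, and 3 genes are listed at 0 in MOMT4, where the open circle sits at 1.

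A pair of values per gene says nothing of its precision, so the reads behind them were recovered where the spacing of the RPKM values allowed. Cuffdiff, the program that made the comparison file, divides the reads of a gene not by its exon length but by its effective length, the number of places in the transcript where a fragment can start. A transcript close to the fragment length has few such places, so a handful of reads gives it a high RPKM. Whole numbers of reads in both libraries were found for 17 of the lower genes when the whole span of the gene was taken as its exon, and for 19 more when a single shorter exon length gave whole reads. For the other 13 no length or several lengths did. Where reads are given for these, they are upper limits, reached if the whole span were exon. All fold differences on reads are per mapped read, with a 95% interval from the split of the reads between the libraries (exact Clopper-Pearson) that covers counting error only and not the difference between plants or pools. Because the genes were selected for low ratios, these intervals show how precisely the 2 libraries were read and are no evidence that the lines differ.

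Among the 36 lower genes with recovered reads, the most reads stood behind 8 genes with at least 500 over both libraries. Some of the 13 genes without recovered reads may have had more. Potri.004G140800, on chromosome 4 from 16399188 to 16402333, had 15.3 RPKM in MOMT4 and 66.3 RPKM in WT. These values stand for 312 and 1251 reads over an exon length of 2370 bases, a 4.33-fold lower level (3.83 to 4.92). It had both the most recovered reads and the largest fold of these 8 genes, and its whole interval lay beyond 2-fold.

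Potri.006G223900, on chromosome 6 from 23594949 to 23596063, followed with 186 reads in MOMT4 and 625 in WT, from 21.8 and 79.3 RPKM, and was 3.63-fold lower (3.08 to 4.30). Potri.005G014300, on chromosome 5 from 1109655 to 1110879, had 273 and 698 reads, from 28.6 and 78.9 RPKM, and was 2.76-fold lower (2.40 to 3.19). Potri.005G200400, on chromosome 5 from 21586903 to 21588671, had 159 and 404 reads, from 11.6 and 31.7 RPKM, and was 2.75-fold lower (2.28 to 3.32). In these 3 genes, too, counting error alone left the fold beyond 2.

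Potri.005G172400 also stayed beyond 2-fold, with 273 and 605 reads and a 2.40-fold lower level (2.07 to 2.77). Potri.005G017300, on chromosome 5 from 1398651 to 1400041, had 188 and 378 reads and was 2.17-fold lower (1.82 to 2.60). Potri.009G084000 had 207 and 413 reads and was 2.16-fold lower (1.82 to 2.56). For the last 2 genes the interval reached to either side of 2, so that their place inside the limit is not fixed by the reads. Of these 8 genes, 4 lie on chromosome 5, which held 1118 of the 16584 genes past the filter. How many of all genes with at least 500 reads lie there was not counted, so nothing is drawn from this.

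Potri.011G074100 completed the 8 and had the highest RPKM of all the lower genes. It spans 180 bases on chromosome 11, from 7198331 to 7198510, and had 1501 RPKM in MOMT4 and 3423 RPKM in WT. The reads behind these values were 174 and 367, fewer than those of Potri.005G014300, because its effective length is 12.3 bases. Its level was 2.28-fold lower (1.90 to 2.75), and its RPKM is not a sound measure of its abundance beside that of longer genes. Potri.010G036800, on chromosome 10, also spans 180 bases and stood at 17.3 RPKM in MOMT4 and 46.6 RPKM in WT, which is 2 reads and 5 reads.

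A further 11 genes had from 50 to 500 reads. Potri.T020500, on an unplaced scaffold, had 34.8 RPKM in MOMT4 and 115.9 RPKM in WT, or 53 and 163 reads, and was 3.32-fold lower (2.43 to 4.62). Potri.019G028700, on chromosome 19 from 3204000 to 3204718, had 8.17 and 27.0 RPKM, or 39 and 119 reads, and was 3.30-fold lower (2.28 to 4.87). Potri.010G052900 had 24 and 68 reads and was 3.06-fold lower (1.90 to 5.10). These 3 genes were each over 3-fold lower, and the first 2 kept beyond 2-fold over the whole interval.

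The other 8 genes of this group were 2.08-fold to 2.51-fold lower, and the intervals of all 8 held 2. Potri.011G052900 had 28 reads in MOMT4 and 65 in WT, and Potri.006G267900 had 32 and 68. Potri.011G020900 had 83 and 170 reads, Potri.006G261200 had 74 and 161, and Potri.004G153100 had 48 and 101. Potri.T063100 had 21.7 and 45.3 RPKM from 41 and 79 reads, Potri.015G046300 had 33 and 71, and Potri.T043700 had 20 and 43. All 19 lower genes with at least 50 recovered reads had intervals that lay wholly on the lower side of 1, with a median of 2.35-fold. The rule sets this outcome, since a 2-fold difference over that many reads leaves 1 outside the interval.

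Fewer than 50 reads over both libraries stood behind 17 of the lower genes, or 47.2% of the 36 whose reads were recovered. Among all genes past the filter with recovered reads the share was 2.52%, 131 of 5189. For 10 of the 17 the interval included 1, so a difference in either direction could not be told from counting error at this depth. These 10 genes were Potri.004G178100, Potri.007G077200, Potri.010G036800, Potri.011G041700, Potri.011G081700, Potri.013G046600, Potri.014G064000, Potri.014G176100, Potri.017G085700 and Potri.019G104300.

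Several of them had RPKM values that look high beside their reads. Potri.014G064000 had 10.2 RPKM in MOMT4 and 55.4 RPKM in WT, a log2 ratio of -2.33, from 1 read and 5 reads over an exon length of 174 bases (0.605-fold to 256-fold lower). Potri.011G041700 had 3.03 and 16.4 RPKM from 1 and 5 reads, and Potri.007G077200 had 2.17 and 11.8 RPKM from 1 and 5 reads. In 3 further genes, Potri.019G104300, Potri.014G176100 and Potri.011G081700, 1 read was set against 3 reads, at 14.6, 15.6 and 8.08 RPKM in WT. Potri.013G046600 had 3.995 and 17.3 RPKM from 2 and 8 reads, and Potri.017G085700 had 7 and 16. At most 10 reads in all stood behind 10 of the lower genes, none of which spans more than 682 bases.

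For 7 of the 17 the interval lay on the lower side of 1. Potri.001G100400, which spans 313 bases on chromosome 1 from 7955080 to 7955392, had 4.17 RPKM in MOMT4 and 22.6 RPKM in WT, or 4 and 20 reads, and was 5.41-fold lower (1.81 to 21.7). Potri.004G192200 had 6 and 17 reads, Potri.009G114700 had 10 and 27, and Potri.005G206900 had 12 and 25. Potri.001G277600 had 8 and 18 reads and Potri.010G032700 had 10 and 21, and their intervals came down to 1.01-fold and 1.02-fold. The seventh was Potri.018G044700, which is listed at 0 in MOMT4.

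**Figure D2:**
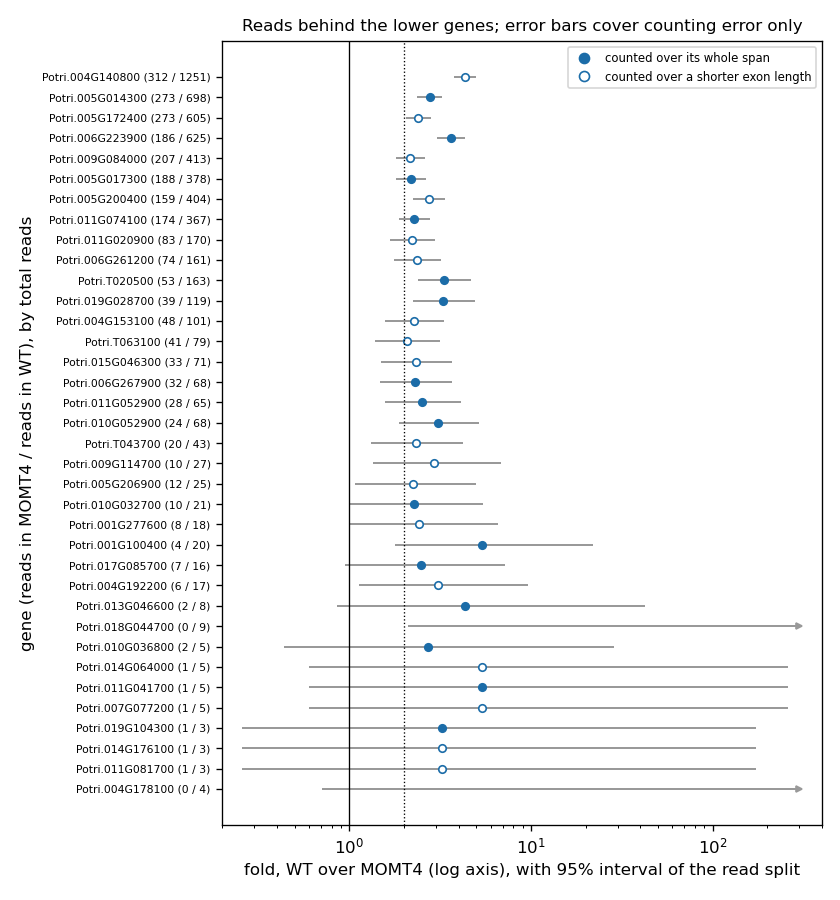
Fold of WT over MOMT4 on a log axis, with the exact 95% interval of the read split, for the 36 lower genes whose reads were recovered, ordered by total reads (MOMT4 / WT reads in brackets). Filled points were counted over the whole span and open points over a shorter exon length, the solid line marks no difference and the dotted line 2-fold, and arrows stand for genes with 0 reads in MOMT4. The 19 genes with at least 50 reads lie wholly to the right of the solid line, as the 2-fold rule requires at that depth. The intervals of 10 genes near the bottom cross it.

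Among all genes past the filter, 3 were listed at 0 in MOMT4 and 3 were listed at 0 in WT. A gene past the filter at 0 in MOMT4 always meets the 2-fold limit, so the rule places the first 3 among the lower genes. Potri.018G044700, on chromosome 18 from 4052926 to 4053221, had 15.0 RPKM in WT, or 9 reads over an exon length of 275 bases. The exact 95% interval of the read split put its level at least 2.13-fold lower. Potri.004G178100, on chromosome 4 from 19594997 to 19595218, had 14.6 RPKM in WT from 4 reads, and its interval, which started at 0.714-fold, gave no bound on the lower side of 1. Potri.002G143500, on chromosome 2 from 10679085 to 10679641, had 10.6 RPKM in WT, which is at most 31.9 reads. The log2 ratios of these genes, -4.004, -3.96 and -3.54, were the smallest of the 49 and depend on the pseudocount.

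Reads could not be recovered for 13 genes, which span from 557 to 10759 bases, so the precision of their values is not known and some may rest on few reads. Potri.002G223100, on chromosome 2 from 21016834 to 21018237, had the second highest RPKM of the lower genes, with 396 RPKM in MOMT4 and 822 RPKM in WT. Its span of 1404 bases allows up to 4451 and 8553 reads, and its log2 ratio was -1.05. Potri.011G074100 and Potri.002G223100 were the only 2 of the 49 to pass a mean of 100 RPKM, and together held 76.6% of the summed RPKM of the 49 genes in WT. Most of that share is the 3423 RPKM of Potri.011G074100, which is not a sound measure of abundance, so the share is not one of transcripts. Potri.007G100100, on chromosome 7 from 12593955 to 12598515, had 37.4 and 88.5 RPKM, with a log2 ratio of -1.22.

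Potri.004G022800, which spans 6133 bases on chromosome 4, had 2.17 RPKM in MOMT4 and 10.02 RPKM in WT, and its log2 ratio of -1.80 was the smallest of the 13 apart from that of Potri.002G143500. Potri.006G046300 had 10.6 and 29.3 RPKM, with a log2 ratio of -1.38. Potri.003G089800 had 5.01 and 11.9 RPKM and Potri.010G030400 had 3.99 and 10.1 RPKM. Potri.005G167300 had 3.33 and 8.11 RPKM and Potri.010G157300 had 3.18 and 8.17 RPKM. The last 4 genes were between 2-fold and 2.5-fold lower on the scale with the pseudocount.

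The remaining 4 of these genes share their listed position with another row, so reads may have been divided between the overlapping genes. Potri.019G046500, on chromosome 19 from 5661542 to 5665296, had 27.2 RPKM in MOMT4 and 88.3 RPKM in WT, while Potri.019G046400 at the same position had 5.46 and 5.72 RPKM. Potri.004G086800, on chromosome 4 from 7264443 to 7266950, had 18.1 and 43.9 RPKM, while Potri.004G086700 had 11.3 and 8.63 RPKM and thus differed in the other direction. Potri.007G048900, on chromosome 7 from 4667759 to 4678517, had 11.4 and 24.5 RPKM beside 30.2 and 36.5 RPKM for Potri.007G049000. Potri.001G402600, on chromosome 1 from 42379261 to 42385767, had 4.55 and 13.1 RPKM, and the row at its position was at 0 in both libraries. No ratio can be drawn from that row, nor from Potri.007G049100, which lies at the position of Potri.007G048900 with 0 RPKM in MOMT4 and 0.243 RPKM in WT. The 3 partner rows with a measurable level were not 2-fold lower. Positions are shared by 8.16% of the lower genes and by 7.90% of all genes past the filter.

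The lower genes were short. Their median span was 1218 bases against 3933 bases over all genes past the filter, and 16 of 49 (32.7%) span under 600 bases, as do 0.868% of all genes. Read the other way, 12 of the 77 genes under 400 bases were lower (15.6%), and 14 of these 77 were at least 2-fold higher (18.2%). Among the 8123 genes of at least 4000 bases, 5 were lower (0.0616%) and 13 were higher (0.160%). Short genes thus made up a larger share of the lower and of the higher genes than of all genes. The short genes also had the larger ratios, with a median log2 ratio of -1.79 for the 16 lower genes under 600 bases and -1.15 for the other 33. Of the 8 genes that were at least 4-fold lower, 7 span under 600 bases, and Potri.004G140800 was the exception.

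**Figure D3:**
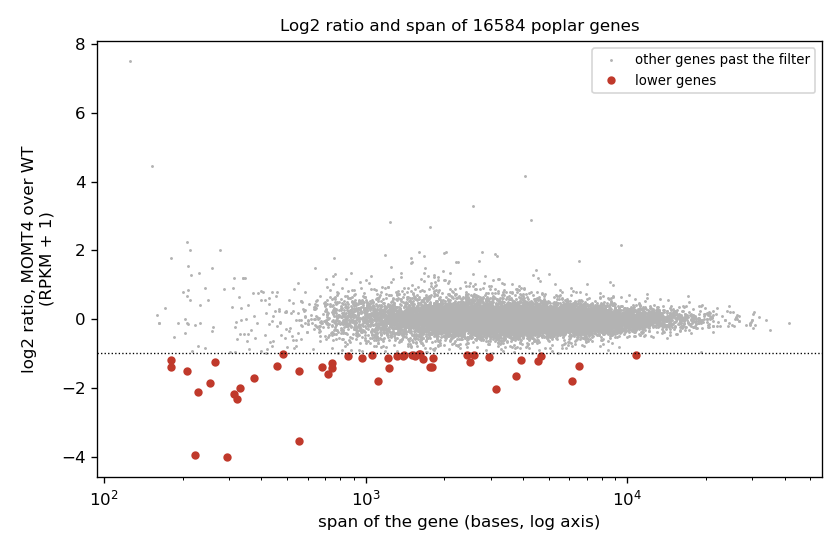
Log2 ratio of MOMT4 over WT (RPKM plus 1) against the span of each gene on a log axis for the 16584 poplar genes past the filter, with the 49 lower genes in red and the limit of -1 dotted. The ratios of all genes fan out to both sides below about 1000 bases, and 7 of the 8 lower genes below -2 span under 600 bases.

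Effective lengths were short as well. Among the 36 lower genes with recovered reads the median effective length was 260 bases, against 1278 bases for all genes with recovered reads, and 12 of the 36 (33.3%) had fewer than 100 bases, as had 1.19% of all. Among genes with few reads the share of lower genes was larger, with 10 of 54 genes with under 20 reads (18.5%), 7 of 77 with 20 to 50 (9.09%) and 3 of 307 with 50 to 100 (0.977%). Above that it did not fall steadily, with 5 of 947 genes with 100 to 200 reads (0.528%), 3 of 1913 with 200 to 500 (0.157%) and 8 of 1891 with at least 500 (0.423%). In the last group 8 genes were higher. The part of counting error in the 49 genes as a set was not tested.

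The genes at least 2-fold higher in MOMT4 had these features too, to a degree that varied with the measure. Their median span was 1782 bases, 15 of 91 (16.5%) span under 600 bases, and 18 of 56 with recovered reads (32.1%) had fewer than 50 reads, against 17 of 36 for the lower genes. For genes counted over their whole span the median was 66 reads in the higher and 92 reads in the lower genes. Means of at least 20 RPKM were found for 15 of 49 lower and 28 of 91 higher genes, or 30.6% and 30.8%. The share over all genes past the filter was 43.9%. Whether the 2 sets differ was not tested.

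The lower genes lay apart from each other. They fall on 16 of the 19 chromosomes, with 46 genes there and 3 on unplaced scaffolds (Potri.T020500, Potri.T043700 and Potri.T063100). Chromosomes 4 and 5 held 6 each, or 0.663% and 0.537% of their genes past the filter, chromosomes 10 and 11 held 5 each, and chromosomes 8, 12 and 16 held none. The highest share on a chromosome was 0.879%, 5 of 569 genes on chromosome 11, and scaffolds had 3 of 183 (1.64%). On chromosome 5, 6 genes were lower and 0 were higher, of 1118 past the filter, and on chromosome 7, 3 were lower and 0 higher, of 639. Chromosomes 8, 12 and 16, with no lower gene, had 8, 2 and 3 higher genes. These are small numbers and are given as a description.

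No lower gene lay within 200 kb of another, and the median distance from one to the next on the same chromosome was 2465 kb. This depends on the filter of 5 RPKM. Below it, Potri.004G140900, with 23 and 58 reads and a log2 ratio of -1.02, lies within 100 kb of Potri.004G140800. Potri.005G015300, with a log2 ratio of -1.09, lies within 100 kb of Potri.005G014300. So does Potri.011G074800, with 0 and 1 reads, beside Potri.011G074100. Among all genes past the filter, 99.1% had another such gene within 100 kb, but that set is far larger, so the values are not comparable. The closest pair was Potri.005G014300 and Potri.005G017300, 288 kb apart on chromosome 5, with 273 and 698 reads and 188 and 378 reads in MOMT4 and WT. The next closest were Potri.006G261200 and Potri.006G267900, 482 kb apart on chromosome 6, and Potri.005G200400 and Potri.005G206900, 543 kb apart on chromosome 5. Of the 91 genes at least 2-fold higher, 11 lay within 100 kb of another higher gene, in a larger set with more possible pairs. Whether the spacing of the lower genes is unusual for a set of their size was not tested. The 2 lower genes of the stretch of chromosome 13 that the rule leaves out also lie within 100 kb of each other.

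Genes next to the lower genes were close to the level of the control. The nearest gene past 5 RPKM on each side was taken, which gave 93 genes at a median distance of 12.2 kb, and the lower genes Potri.T020500 and Potri.T063100, both on scaffolds, had no such neighbour. The adjacent genes are not independent of the rule, since they passed the same filter and any that was 2-fold lower would itself be a lower gene. The median log2 ratio of the adjacent genes was -0.089, against -0.011 over all genes past the filter, and 59 of 93 (63.4%) were below 0, against 52.2%. None was 2-fold lower, which only restates that no lower gene was next to another. Of the 93, 4 (4.30%) were at least 1.5-fold lower and 4 (4.30%) at least 1.5-fold higher. Over all genes past the filter the shares were 1.68% and 2.32%. Both shares were above those of all genes, but each rests on 4 genes and the difference was not tested. No lower gene had a nearest neighbour at least 1.5-fold lower on both sides.

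The 4 neighbours that were 1.5-fold lower were picked out after their values were seen. Potri.019G028600, 0.113 kb from Potri.019G028700, had 24.9 RPKM in MOMT4 and 45.4 RPKM in WT, a log2 ratio of -0.84. Potri.011G074200, 0.676 kb from Potri.011G074100, had 9.21 and 14.6 RPKM, a log2 ratio of -0.61. Potri.001G277700, 5.06 kb from Potri.001G277600, stood at -0.67, and Potri.005G167800, 101.45 kb from Potri.005G167300, stood at -0.62. Beyond the nearest genes, Potri.011G074100 stood among others that were lower to a smaller degree. Of the genes past 5 RPKM among the 5 on either side of it, 7 lay within 10 kb, and all 7 had log2 ratios below 0, from -0.81 to -0.10. At least 1.5-fold lower were Potri.011G073900 (-0.79) on one side and Potri.011G074200 and Potri.011G074600 (-0.81) on the other, and these, too, were picked out after their values were seen. Potri.019G028600 and Potri.011G074200 lie within 1 kb of a lower gene, and whether reads of one gene were counted for the other was not tested. In contrast, Potri.001G100500, 0.037 kb from Potri.001G100400, was higher in MOMT4, with 12.9 against 7.92 RPKM.

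**Figure D4:**
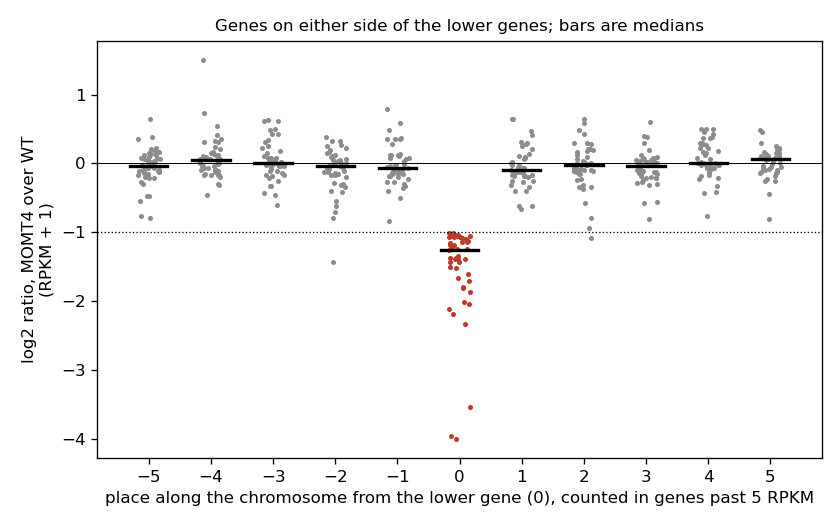
Log2 ratio of MOMT4 over WT (RPKM plus 1) for the 49 lower genes (red, place 0) and for up to 5 genes on either side along the same chromosome, counted in genes past the 5 RPKM filter, with the median at each place as a bar. The medians of the neighbours lie between -0.095 and 0.069 at all 10 places, far above the dotted limit of -1.

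Genes at the limits show how fine the selection was. The 5 lower genes nearest to the 2-fold limit had log2 ratios of -1.04 (Potri.005G206900), -1.03 (Potri.011G020900), -1.03 (Potri.T063100), -1.02 (Potri.004G153100) and -1.01 (Potri.010G032700). Just outside it stood Potri.004G097900 at -0.995, with 3.44 RPKM in MOMT4 and 7.86 RPKM in WT, and 4 more genes between -0.990 and -0.985. At the other limit, Potri.011G081700 was the lower gene with the smallest mean, 5.28 RPKM, and Potri.005G015300, with a log2 ratio of -1.09, was left out with a mean of 4.94 RPKM.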

How the data were processed

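Per the methods of the study, the authors aligned single-end reads of strand-specific libraries to the P. trichocarpa genome with TopHat, counted reads per gene, normalized them to RPKM and compared the libraries with Cuffdiff. Genome build and versions are not given in the sources used here. The deposited table holds 1 RPKM value per gene and library, and also the authors' fold changes, test statistics, p and q values and calls, which were not used. Positions have 1 added to the table's starts.

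Poplar genes were kept unless their status was FAIL (2 rows). Log2 ratios were computed with a pseudocount of 1 RPKM, and no test was made, since each line has 1 library. Effective lengths were modelled with fragments of 200 ± 80 bases, cut at 440 bases and at the shortest length, from 90 to 110, that gave the most whole reads (99). Totals were fitted to the same values. Reads counted as whole within 0.0001 read plus rounding, and a shorter exon length was accepted if it alone fitted and under 0.05 further matches were foreseen. The steps were tested on simulated data.

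The members and lists were chosen with earlier results of these data known. Genes were named by rule: all 49, with values for those at 0, those with the largest ratios and those with the highest mean RPKM. Keyword groups and promoter motifs were not analysed here, since no annotation or sequence was used. Values were computed in Python 3.11.15 with NumPy 2.4.6 and pandas 2.3.3, intervals with SciPy 1.17.1, and plots with matplotlib 3.10.9.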

Additional observations from a re-analysis of the deposited data

How the results depend on the processing

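No paired analysis was possible because a single library stands for each line. The main count of lower genes was 49. The treatment of low values moved it to 26 with a pseudocount of 5 RPKM, 153 with a mean of at least 1 RPKM, 24 with a mean of at least 10 RPKM and 232 with no filter on low values. The limits themselves gave 279 genes at 1.5-fold and 8 at 4-fold. Restricted to genes with at least 50 recovered reads, a setting chosen after seeing the data, it was 19 of 5058 (0.376%), with 38 higher. It stayed within 1.5 times 49 under the other settings, from 33 with spans of at least 600 bases to 68 with a pseudocount of 0.1 RPKM. In every one of these settings the higher genes outnumbered the lower ones. The median log2 ratio of the 49 genes was -1.26, -1.43 with a pseudocount of 0.1 RPKM and -1.25 with RPKM rescaled to the same sum. Their median span was 1218 bases and 1308 bases for the 24 past a mean of 10 RPKM. The number of lower genes with another within 100 kb was 0 and stayed 0 at 50 kb and 200 kb. Only the distance was varied there. With a mean of at least 1 RPKM, or with the stretch of chromosome 13 kept in, there are pairs of lower genes within 100 kb. The median of the genes next to the lower genes was -0.089 also when neighbours needed only 1 RPKM. Depth limits the short genes: 10 of 36 lower genes rest on at most 10 reads.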

Other observations

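The rule left out 2 genes of the stretch on chromosome 13 that pass its other limits. Potri.013G139100, on chromosome 13 from 14757219 to 14757726, had 7.87 RPKM in MOMT4 and 22.1 RPKM in WT, or 10 and 26 reads over an exon length of 348 bases. Potri.013G141400, from 14845563 to 14846078, had 58.9 RPKM in WT and is listed at 0 in MOMT4. Below the filter, 104 of the 6329 poplar genes with a mean of 1 to 5 RPKM outside that stretch were at least 2-fold lower (1.64%), 39 of them listed at 0 in MOMT4. Reads were recovered for 58 of the 104, with a median of 8.5 over both libraries and at most 98.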
